A study of Mus musculus with 12 samples.

Results

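Laminins and their partners form the basal lamina, the sheet of matrix that every Schwann cell lays down around itself and its axon, and integrins and dystroglycan are the receptors that hold the cell to it. The genes described here are the numbered laminin chains and numbered integrin chains of the mouse together with nidogen-1 and nidogen-2 (Nid1, Nid2), perlecan (Hspg2), agrin (Agrn), fibronectin (Fn1), dystroglycan (Dag1), utrophin (Utrn), dystrophin-related protein 2 (Drp2) and integrin αv (Itgav). They were picked by gene symbol and gave 39 of the 47480 symbols of the table. By their known places in nerve, and with earlier results of these data known, 17 were taken as chains of the Schwann cell basal lamina, 9 of them ligands and 8 of them receptors or receptor partners. The other 22 chains comprised 7 ligands and 15 integrin chains that bind collagen, the RGD sequence of fibronectin and vitronectin, or counter-receptors on other cells.

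RNA was sequenced from trigeminal nerve, the sensory nerve of the face, in 6 normal nerve samples from Nf1 flox/flox PostnCre- mice and 6 plexiform neurofibroma samples from Nf1 flox/flox PostnCre+ mice, called tumours below. Such tumours are benign and grow from Schwann lineage cells that have lost Nf1, the gene for neurofibromin, which restrains RAS. Both groups carried floxed Nf1 and differed by a Cre named for the periostin gene (Postn), so genotype and tumour state cannot be told apart. The labels give neither the cells in which that Cre acts, nor age, sex, litter, batch or a drug treatment, nor whether each sample is a separate animal, so p-values measure only the spread between these samples. Replicate numbers here follow the order of the records, since the labels give none, and only name a library.

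As background, a laminin is a trimer of an α, a β and a γ chain. Schwann cells polymerise laminins on their surface, nidogens and perlecan tie that sheet to the type IV collagen network, and agrin and perlecan also bind dystroglycan. Integrin α3β1, α6β1, α7β1 and α6β4 and dystroglycan bind the laminin α chains, and inside the cell dystroglycan is joined to the cytoskeleton through utrophin or Drp2, the latter in myelinating Schwann cells.

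Total counts ran from 14160025 to 19989351 per library. Nf1 was lower in the tumour group, with a median of 141 CPM (read counts relative to library sizes scaled by the trimmed mean of M-values, TMM) in normal nerve and 86.6 CPM in tumours (log2 fold change -0.65, edgeR adjusted p = 0.0179), and the groups overlapped. Its count covers the whole gene and is therefore only a partial check of the deletion. As a check of the labelled tissue, 15 Schwann cell markers summed to between 5997 and 15272 CPM in normal nerve and between 13951 and 23482 CPM in tumours. By the edgeR test 6 of the 15 markers (40%) were higher in the tumours and 0 lower, against 10.0% higher and 8.63% lower over all genes tested. Sensory neuron markers summed to 7091 to 12177 CPM in normal nerve and 8070 to 10330 CPM in tumours. Of these markers 0 of 12 were higher and 1 was lower (Snap25, 0.722-fold, without overlap), a share of 8.33% that is near that of all genes. Only 3 of the 12 had a log2 fold change above 0, and the list median was -0.23. The count lower was 5 without normal replicate 6, where 2487 genes of the whole table were lower against 1488. It was 2 without tumour replicate 3 or 5. Normal replicate 2 stood apart with the lowest Schwann marker sum, and it was the lowest of all 12 libraries for 12 of the 17 Schwann basal lamina chains and for 22 of the 39 genes. Normal replicate 6 stood apart with 2204 CPM of central glia markers, against at most 399 CPM in the other normal libraries, and tumour replicate 1 with 1897 CPM of skeletal muscle markers. At the other end, normal replicate 1 had the highest Schwann marker sum of its group and was its highest library for 14 of the 17 chains. Normal replicate 3 held 456 CPM of skeletal muscle markers, against at most 56.7 CPM in the other normal libraries. Both stayed in the fit without 3 libraries given below. In bulk tissue, fewer cells of a type and less RNA per cell cannot be told apart, and the part of these differences in the results below was not tested. The cell type that a transcript came from, neurons included, is not resolved either, also for the chains named after the Schwann basal lamina.

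Most ligand chains of the Schwann cell basal lamina were higher in plexiform neurofibroma. Of the 39 genes, all of which passed the filter on low counts, 12 were higher and 2 were lower by the edgeR quasi-likelihood test (Benjamini-Hochberg adjusted p under 0.05). Over all 17236 genes tested, 10.0% were higher and 8.63% were lower. The log2 fold change (plexiform neurofibroma over normal nerve throughout) was above 0 in 31 of the 39, with a median of 0.46 against -0.02 over all genes tested. In the Schwann basal lamina, 8 of 17 chains were higher and 1 was lower, with a median of 0.71. The 8 that rose were the laminin chains Lama2, Lama4, Lamb1 and Lamc1, the linkers Nid1, Nid2 and Hspg2, and the integrin chain Itgb1. Ligands accounted for 7 of them, out of 9 ligand chains with a median log2 fold change of 0.86. Of the 8 genes of receptors or receptor partners, 1 rose and 1, Itga3, fell, with a median of 0.30. Those 8 include the cytoplasmic partners Utrn (0.10) and Drp2 (0.27). They also include Dag1 (0.74) and Itga6 (0.71), which lay just outside the threshold (edgeR adjusted p = 0.0557 and 0.0568). Among the other 22 chains, 4 integrin genes (Itgav, Itgb3, Itgb5 and Itgb8) rose and the laminin gene Lama3 fell, with a median of 0.34. The difference between these lists, which were drawn up with earlier results known, was not tested.

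**Figure D1:**
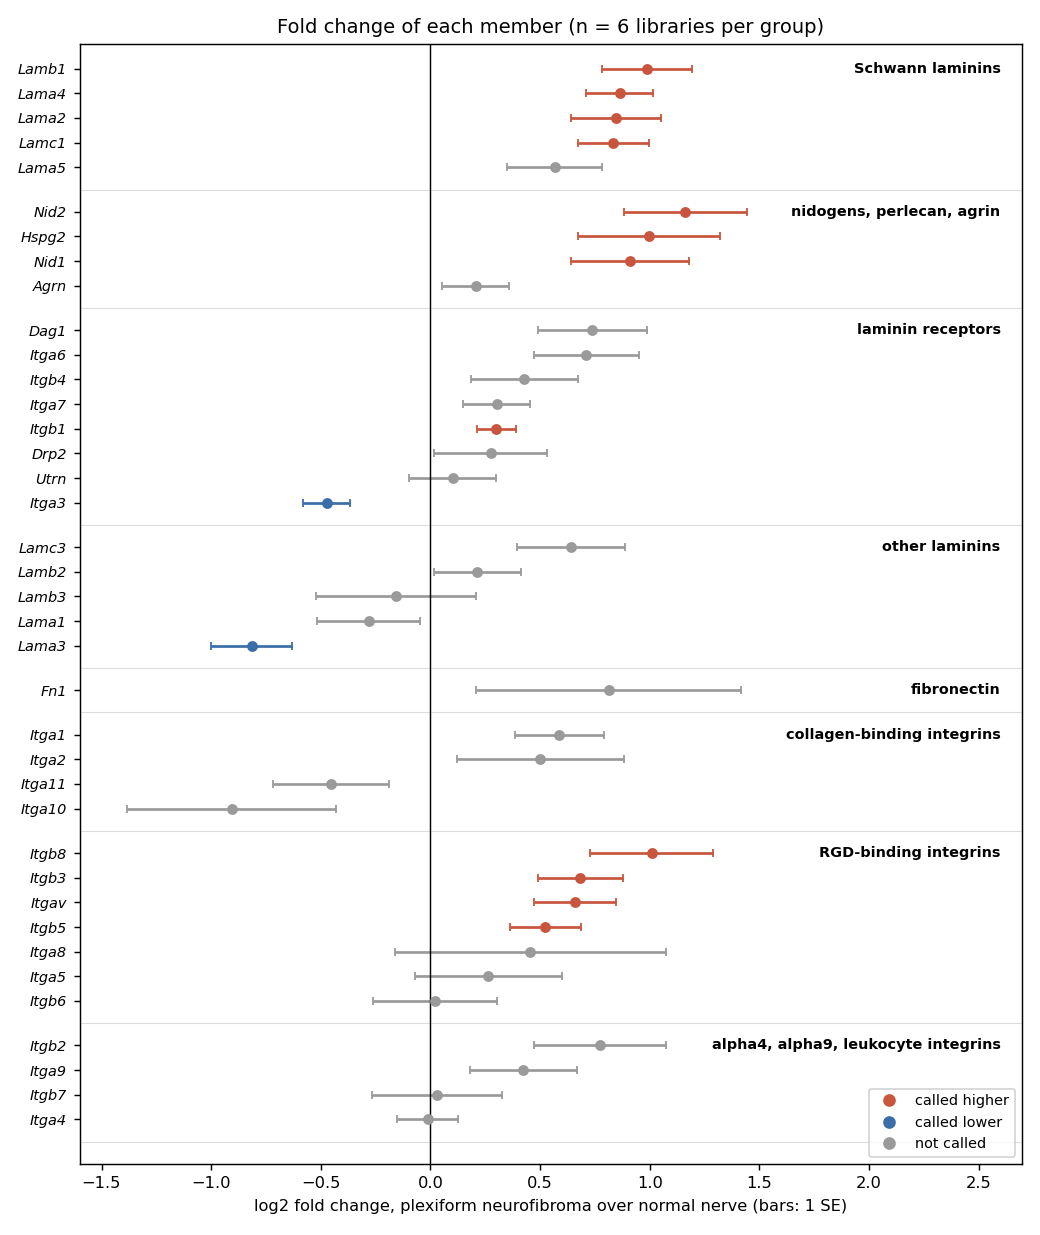
Log2 fold change of 38 of the genes, plexiform neurofibroma over normal nerve (6 libraries per group), grouped by class. Points are edgeR estimates, bars are 1 standard error derived from the F statistic of the test, red and blue mark genes called higher or lower at an adjusted p under 0.05. Of the 9 ligand chains in the top 2 classes, 7 are red. Of the 8 genes in the class of laminin receptors, which includes the partners Utrn and Drp2, 6 are grey.

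The number of calls depended on single libraries. Without tumour replicate 2, 4 or 6 in turn, 5 of the 39 genes were called higher, all of them Schwann basal lamina ligands, and without normal replicate 3 the count was 7. The Schwann basal lamina count was 5 without any one of normal replicate 3 and tumour replicates 1, 2, 4 and 6. Lama2, Lama4, Lamb1, Lamc1, Nid2, Itga3 and Lama3 were called whichever single library was left out. With no filter on low counts the calls of Nid1, Hspg2, Itgb1, Itgav, Itgb5 and Itgb8 were lost (edgeR adjusted p from 0.0514 to 0.119), while DESeq2 and limma-voom each called Lama5, Itga6, Dag1, Lamc3 and Itgb2 as well. DESeq2 further called Itga1, and limma-voom Fn1. A transcript length correction added Itga6, Dag1 and Itga1, and upper-quartile factors added Dag1. Without normal replicates 2 and 6 and tumour replicate 1 together, 8 genes were higher, 6 of them in the Schwann basal lamina and 2 among the other chains. Over the whole table, however, that fit called more genes higher than the main fit, 2185 against 1730. DESeq2 called 2286 higher, limma-voom 2864 and the fit with no filter 1364.

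Both laminin α chains that predominate around Schwann cells rose. Lama2 (chromosome 10, 26980036 to 27619758, minus strand, GRCm38, here and below for whole genes) encodes the α2 chain of laminin-211, the chain whose loss causes a congenital muscular dystrophy with neuropathy. It measured 30.1, 55.4 and 74.1 CPM (lowest, median and highest library) in normal nerve and 69.1, 102 and 119 CPM in tumours, a 1.8-fold difference (log2 fold change 0.85, SE 0.20, edgeR adjusted p = 0.0147). In 5 of 6 tumours the value lay above every normal library, and the lowest tumour value lay below the highest normal one. Lama4 (chromosome 10, 38965515 to 39110188, plus strand) encodes the α4 chain, found around Schwann cells and blood vessels. Its values were 31.7, 46.0 and 62.0 CPM in normal nerve and 71.6, 85.2 and 103 CPM in tumours (1.82-fold, log2 fold change 0.86, SE 0.15, edgeR adjusted p = 0.00407). Every tumour lay above every normal library for Lama4. Lama5, which encodes the α5 chain of perineurial, vascular and nodal basal laminae, measured 14.2, 20.7 and 26.8 CPM in normal nerve and 21.6, 27.9 and 44.7 CPM in tumours. Its groups overlapped and it was not called (log2 fold change 0.57, SE 0.22, edgeR adjusted p = 0.0825).

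The β1 and γ1 chains, which complete the trimers around Schwann cells, rose as well. Lamb1 (chromosome 12, 31265234 to 31329644, plus strand) measured 78.3, 112 and 191 CPM in normal nerve and 189, 245 and 282 CPM in tumours (1.98-fold, log2 fold change 0.99, SE 0.21, edgeR adjusted p = 0.0081). All tumours but 1 lay above the highest normal library, normal replicate 1. Lamc1 (chromosome 1, 153218922 to 153332786, minus strand) measured 51.7, 77.3 and 107 CPM in normal nerve and 112, 155 and 163 CPM in tumours (1.78-fold, log2 fold change 0.83, SE 0.16, edgeR adjusted p = 0.00584). Its groups did not overlap. Only 3 of the 39 genes, Lama4, Lamc1 and Itgb3, had groups that did not overlap, all of them higher, against 7.39% of all genes tested (4.40% higher), so that count is near the background.

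**Figure D2:**
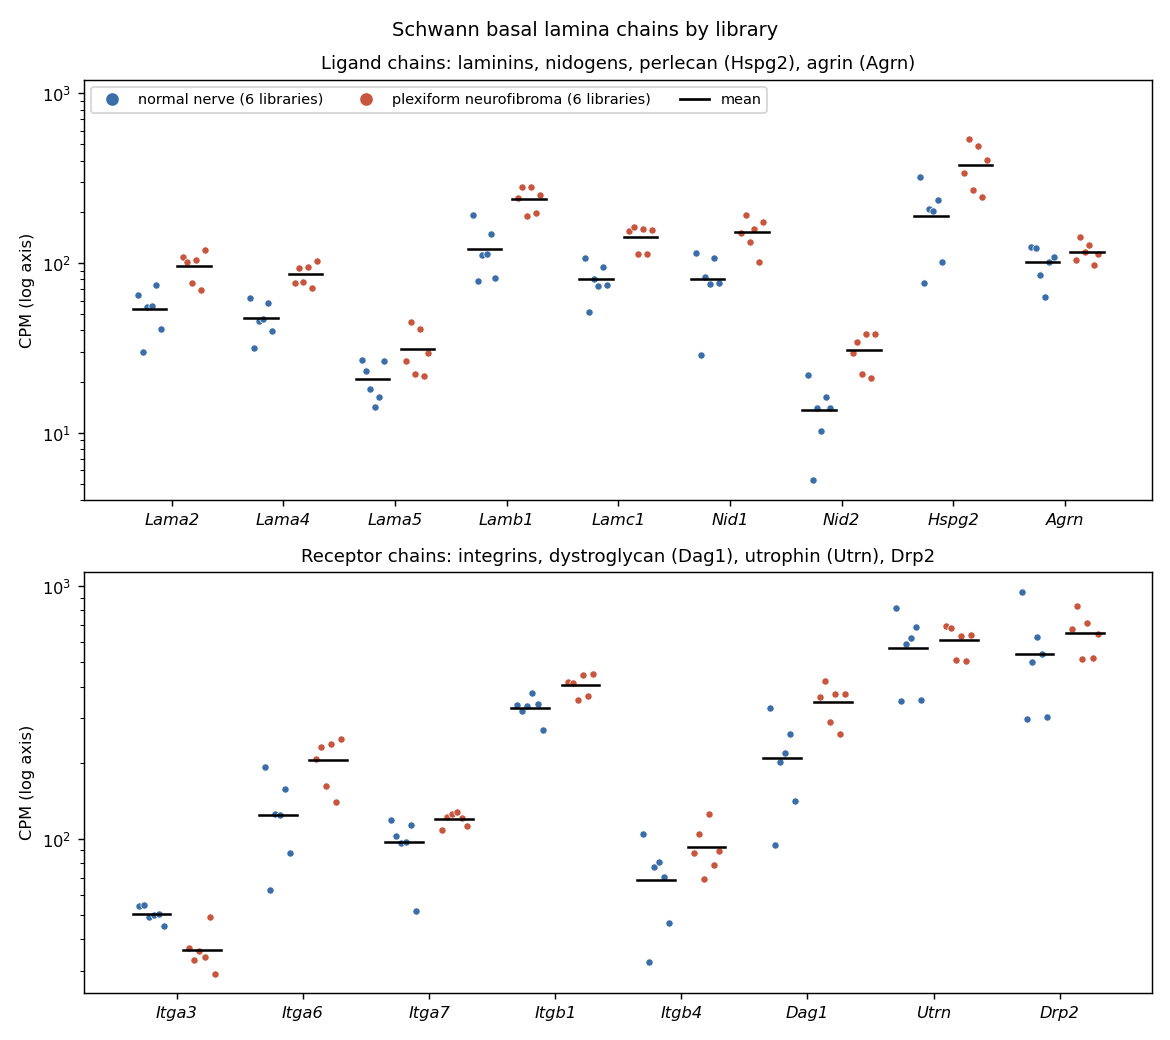
TMM-scaled CPM on a log axis for the 17 Schwann basal lamina genes, ligands above and receptors or receptor partners below. There is 1 point per library (6 normal nerve, 6 plexiform neurofibroma) and a bar at each group mean. All 6 tumours lie above all 6 normal libraries for Lama4 and Lamc1. Normal replicate 2 is the lowest point for 12 of the 17 genes, and normal replicate 1 is the highest normal point for 14.

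Of the 4 linkers and proteoglycans, 3 rose and agrin was not called. Nid2, which encodes nidogen-2, measured 5.24, 13.9 and 21.9 CPM in normal nerve and 21.1, 31.7 and 38.4 CPM in tumours (2.24-fold, log2 fold change 1.16, SE 0.28, edgeR adjusted p = 0.0151). Its groups met at their edges, with 5 of 6 tumours above the highest normal library. The value of Nid2 is uncertain, because 2700060E02Rik overlaps it on the opposite strand with a mean count of 1278 against 384 for Nid2, and the sources used here do not say whether counting used strand. Nid1, for nidogen-1, measured 28.5, 79.2 and 115 CPM in normal nerve and 101, 154 and 192 CPM in tumours (1.88-fold, log2 fold change 0.91, SE 0.27, edgeR adjusted p = 0.0351). Again 5 of 6 tumours exceeded every normal library. The Nid1 call was lost without normal replicate 3 or 4 or tumour replicate 1, 2, 4 or 6, with an edgeR adjusted p of at most 0.0762.

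Perlecan (Hspg2), a large heparan sulfate proteoglycan, was just inside the threshold. It measured 76.4, 205 and 319 CPM in normal nerve and 246, 371 and 534 CPM in tumours (2-fold, log2 fold change 0.998, SE 0.32, edgeR adjusted p = 0.0495). The groups overlapped, and 4 of 6 tumours lay above the highest normal library. The call held only with all 12 libraries or without normal replicate 1 or tumour replicate 5, and the edgeR adjusted p reached 0.107 when another library was left out. It was also lost with RLE factors (edgeR adjusted p = 0.0504) and with a muscle score as covariate (edgeR adjusted p = 0.0609), a term that ended the call of Itgb5 too (edgeR adjusted p = 0.0503). Agrin measured 62.8, 105 and 125 CPM in normal nerve and 97.1, 114 and 142 CPM in tumours, overlapping over most of the range (log2 fold change 0.21, SE 0.15, edgeR adjusted p = 0.352). Over all genes tested, 10.0% were higher and 8.63% lower. Perineurial markers, of cells that also make a basal lamina, had 1 of 4 tested genes (25%) higher (Cldn1, 1.55-fold) and 0 lower. Cldn1 was the only one of the 4 with a log2 fold change above 0, the list median was -0.28, and the sum ran from 152 to 202 CPM in normal nerve and from 142 to 167 CPM in tumours. Endothelial markers had 0 of 10 higher and 1 (10%) lower (Cdh5, 0.619-fold), the latter near the share of all genes. Only 1 of the 10 had a log2 fold change above 0, and the list median was -0.34. The endothelial sums were 131 to 307 CPM in normal nerve and 121 to 192 CPM in tumours. Fibroblast markers had 5 of 10 (50%) higher and 0 lower, with sums of 935 to 1816 CPM against 2044 to 3989 CPM. The Cldn1 call was lost without any one of 9 libraries, the Cdh5 call without any one of 6, and the fibroblast count was 3 without normal replicate 5 or tumour replicate 2, 4 or 6; the part of these cells in the ligand results was not tested.

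Among the laminin-binding integrin chains, Itgb1 rose and Itga3 fell. Itgb1 encodes β1, the shared partner of α3, α6 and α7, and measured 270.2, 336 and 376 CPM in normal nerve and 354, 416 and 448 CPM in tumours (1.23-fold, log2 fold change 0.30, SE 0.09, edgeR adjusted p = 0.0327). The groups overlapped, with 4 of 6 tumours above the highest normal library. Its call was lost without normal replicate 2, 3 or 5 or tumour replicate 1, 2, 4 or 6, with an edgeR adjusted p of at most 0.0788. Itga3, for the α3 chain of a laminin-511 receptor, measured 45.1, 49.98 and 54.7 CPM in normal nerve and 29.2, 35.0 and 48.8 CPM in tumours (0.72-fold, log2 fold change -0.47, SE 0.11, edgeR adjusted p = 0.0106). In 5 of 6 tumours Itga3 lay below the lowest normal library, the exception being tumour replicate 5.

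The α6, α7 and β4 chains were not called in the main fit. Itga6, whose α6 chain pairs with β1 in immature and with β4 in myelinating Schwann cells, measured 62.5, 125 and 191 CPM in normal nerve and 140, 219 and 248 CPM in tumours (log2 fold change 0.71, SE 0.24, edgeR adjusted p = 0.0568). It was the nearest of the 3 to the threshold and was called without normal replicate 1 or tumour replicate 5, with an edgeR adjusted p as low as 0.0224. Itga7, for a laminin-211 receptor chain, measured 51.9, 99.8 and 118 CPM in normal nerve and 108, 121 and 127 CPM in tumours (log2 fold change 0.30, SE 0.15, edgeR adjusted p = 0.177). Its low value of 51.9 CPM was that of normal replicate 6. Itgb4 measured 32.6, 73.6 and 105 CPM in normal nerve and 69.0, 88.3 and 126 CPM in tumours (log2 fold change 0.43, SE 0.24, edgeR adjusted p = 0.228).

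Neither dystroglycan nor its cytoplasmic partners were called in the main fit. Dag1, which encodes both dystroglycan subunits, measured 94.3, 210.45 and 330.2 CPM in normal nerve and 259, 369 and 419 CPM in tumours (log2 fold change 0.74, SE 0.25, edgeR adjusted p = 0.0557). It missed the threshold with all libraries and was called without normal replicate 1 (edgeR adjusted p = 0.0192), the highest normal library. Utrn measured 349, 605 and 820.4 CPM in normal nerve and 505, 637 and 694 CPM in tumours (log2 fold change 0.10, SE 0.20, edgeR adjusted p = 0.748). Drp2 measured 298, 521 and 950.3 CPM in normal nerve and 512, 659 and 834 CPM in tumours (log2 fold change 0.27, SE 0.26, edgeR adjusted p = 0.470). For both partners the tumours lay inside the range of the normal libraries, and with the 3 libraries that stood apart left out the log2 fold change was -0.19 for Utrn and -0.02 for Drp2.

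Within each library, however, the balance of the partners to dystroglycan differed between the groups. A ratio taken inside a library does not depend on its scaling, and 8 pairs of genes were compared in this way. The test was a two-sided exact permutation test, whose 924 arrangements allow no p below 0.00216, and p-values were adjusted over the 8 pairs. The pairs were formed from genes chosen with earlier results known, and the ratios use the same counts as the fold changes above, so they are not separate evidence. No share of non-overlapping ratios was taken over other gene pairs. The log2 ratio of Utrn to Dag1 was 1.31 to 1.89 in normal nerve and 0.70 to 0.96 in the tumours, and the groups did not overlap (difference -0.67, exact p = 0.00216, adjusted p = 0.00577). The Drp2 to Dag1 ratio was 1.05 to 1.66 in normal nerve and 0.78 to 0.999 in the tumours, again without overlap (difference -0.46, exact p = 0.00216, adjusted p = 0.00577). Per unit of dystroglycan transcript, the tumours thus held 0.629 times as much utrophin and 0.727 times as much Drp2 transcript as normal nerve.

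The balance of the laminin β chains also differed. Lamb2, the β2 chain of neuromuscular, glomerular and some perineurial laminins, measured 31.9, 52.2 and 76.5 CPM in normal nerve and 44.7, 59.6 and 80.9 CPM in tumours (log2 fold change 0.21, SE 0.20, edgeR adjusted p = 0.467). The log2 ratio of Lamb1 to Lamb2 was 0.09 to 1.69 in normal nerve and 1.80 to 2.23 in the tumours, a 1.74-fold change of the ratio (difference 0.80, exact p = 0.00216, adjusted p = 0.00577). The groups did not overlap, and the lowest normal ratio, 0.09, was that of normal replicate 6. Without the 3 libraries that stood apart the difference was 0.58 (exact permutation, adjusted p = 0.0212).

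The other ratios of laminin α chains and of laminin-binding integrin chains did not pass the test. The Lama4 to Lama2 log2 ratio differed by 0.01 between the groups (exact p = 0.972, adjusted p = 0.972), from a mean of -0.15 ± 0.17 (SD, n = 6) in normal nerve to -0.15 ± 0.21 (SD, n = 6) in the tumours. For Lama5 to Lama2 the difference was -0.33 (exact p = 0.340, adjusted p = 0.453) and became 0.16 without the 3 libraries that stood apart. Itga6 to Itga7 differed by 0.42 (exact p = 0.130, adjusted p = 0.208), with 4 of 6 tumours above every normal library, and Itgb4 to Itgb1 by 0.20 (exact p = 0.478, adjusted p = 0.547). Of the 8 pairs, the 1 that remains is Itgb8 to Itgb1, given with the RGD-binding integrins.

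**Figure D3:**
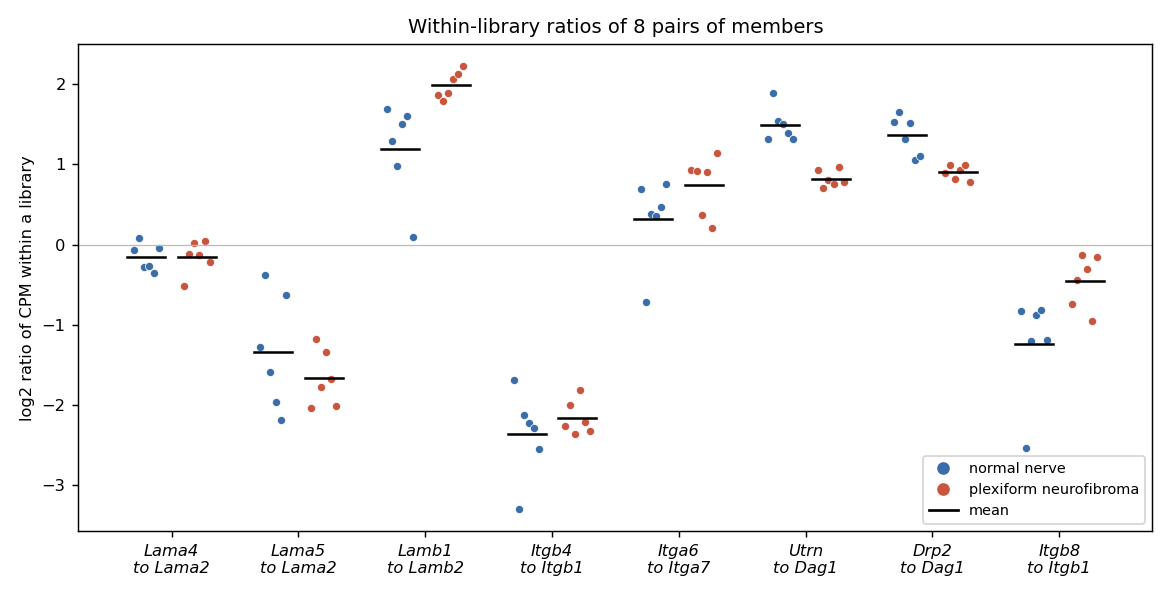
Log2 ratio of CPM within a library for 8 pairs of genes (prior count 2), with 1 point per library, 6 per group, and a bar at each group mean. The groups do not overlap for Lamb1 to Lamb2, where the tumours are higher, or for Utrn to Dag1 and Drp2 to Dag1, where the tumours are lower.

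Per kilobase of the longest annotated transcript, which allows levels of different genes to be set side by side, the 6 highest genes in normal nerve were receptors or their partners. Among the 17 Schwann basal lamina genes in normal nerve, the highest mean levels were 86.6 CPM per kb for Itgb1, 75.3 for Drp2, 46.0 for Utrn, 36.7 for Dag1, 28.9 for Itga6 and 24.0 for Itga7. Lamb1 was the most abundant ligand transcript at 20.8 CPM per kb, followed by Hspg2 at 13.4 and Nid1 at 13.3, which did not differ beyond their spread. Lama4 at 7.81, Lama2 at 5.56, Nid2 at 2.79 and Lama5 at 1.83 CPM per kb were the lowest 4. In the tumours Itgb1 stood at 107, Drp2 at 91.1, Dag1 at 61.2, Utrn at 49.3, Itga6 at 47.3 and the ligand Lamb1 at 41.3 CPM per kb, above Itga7 at 29.6, so that the mean of Dag1 lay below that of Utrn in normal nerve and above it in the tumours. Relative to the level of Lamc1 per kilobase, the shared γ1 chain, the median level of Lama4 was 0.753 in normal nerve and 0.779 in the tumours, that of Lama2 was 0.513 and 0.526, and that of Lamb1 was 2.02 and 2.24. The level of Lamb2 per Lamc1 was 0.694 to 1.395 in normal nerve and 0.460 to 0.673 in the tumours, ranges that did not overlap.

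Apart from Lamb2, the remaining laminin chains were scarce, each with a median of at most 10.5 CPM in either group, and 1 of them fell. Lama3, for the α3 chain of epithelial laminin-332, measured 5.63, 7.996 and 11.1 CPM in normal nerve and 3.36, 4.66 and 5.79 CPM in tumours (0.568-fold, log2 fold change -0.82, SE 0.19, edgeR adjusted p = 0.0112). The groups met only at their edges, and the call held whichever library was left out. Lamb3, for the β3 chain of the same trimer, had a median of 0.559 CPM in normal nerve and a log2 fold change of -0.16 (edgeR adjusted p = 0.788). Its value is uncertain, because G0s2 overlaps it on the opposite strand with a mean count of 196 against 10.2 for Lamb3. Lama1, the α1 chain of embryonic basement membranes, measured 3.82 to 10.8 CPM in normal nerve and 3.92 to 6.10 CPM in tumours (log2 fold change -0.28, edgeR adjusted p = 0.415). Without normal replicate 6, its highest library, the log2 fold change of Lama1 was -0.02 (edgeR adjusted p = 0.941). Lamc3 measured 4.45 to 10.5 CPM and 6.10 to 14.1 CPM (log2 fold change 0.64, edgeR adjusted p = 0.0824) and was called without normal replicate 6 or tumour replicate 3, with an edgeR adjusted p as low as 0.0182.

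Fibronectin, the main RGD ligand of interstitial matrix, was not called. It measured 20.8, 30.8 and 203 CPM in normal nerve and 34.0, 94.1 and 197 CPM in tumours (1.76-fold, log2 fold change 0.81, SE 0.60, edgeR adjusted p = 0.359). The normal value of 203 CPM was that of replicate 6, and the median of the tumours lay above the other 5 normal libraries. Without normal replicate 6 the log2 fold change was 1.71 (edgeR adjusted p = 0.0174).

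The RGD-binding integrins held 4 of the 5 calls among the chains outside the Schwann basal lamina. Itgav, the α partner shared by β3, β5, β6 and β8, measured 49.4, 78.5 and 117 CPM in normal nerve and 86.5, 130 and 155 CPM in tumours (1.58-fold, log2 fold change 0.66, SE 0.19, edgeR adjusted p = 0.0292). Itgb8, whose αvβ8 heterodimer activates latent TGF-β, measured 55.1, 168 and 205 CPM in normal nerve and 190.0, 314 and 402 CPM in tumours (2.01-fold, log2 fold change 1.01, SE 0.28, edgeR adjusted p = 0.027). For both genes 5 of 6 tumours lay above every normal library. Itgb3, the β chain of the vitronectin receptor, measured 6.71, 12.2 and 15.1 CPM in normal nerve and 15.2, 18.2 and 28.3 CPM in tumours (1.61-fold, log2 fold change 0.68, SE 0.19, edgeR adjusted p = 0.0289), without overlap. Itgb5 measured 38.8, 50.7 and 76.8 CPM in normal nerve and 54.5, 83.4 and 91.8 CPM in tumours (1.44-fold, log2 fold change 0.52, SE 0.16, edgeR adjusted p = 0.039), with 4 of 6 tumours above the normal range.

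None of these 4 calls held under every leave-out. All 4 were lost without any one of tumour replicates 2, 4 and 6, Itgav also without normal replicate 3, Itgb3 without normal replicate 4, and Itgb5 without normal replicates 2 to 5 or tumour replicate 1. The highest edgeR adjusted p was 0.0683 for Itgav, 0.0639 for Itgb3, 0.0917 for Itgb5 and 0.0628 for Itgb8. The log2 ratio of Itgb8 to Itgb1 was -2.54 to -0.82 in normal nerve and -0.95 to -0.13 in the tumours (difference 0.79, exact p = 0.0108, adjusted p = 0.0216), with 5 of 6 tumours above the highest normal library. That difference had an exact adjusted p of at most 0.0563 without tumour replicate 2, 3, 4 or 6, and was 0.54 (exact adjusted p = 0.0794) without the 3 libraries that stood apart. Macrophage and leukocyte markers, of cells that also carry αv and β5 integrins, had 4 of 8 (50%) higher and 0 lower by the edgeR test. Over all genes tested, the shares were 10.0% and 8.63%. Their sums were 34.1 to 151 CPM in normal nerve and 112 to 209.55 CPM in tumours, and 4 of the 8 tested markers were called. That count was 1 without tumour replicate 4 and 2 without any one of normal replicates 1, 2, 4 and 5 and tumour replicates 1, 2 and 6, and the part of these cells in the integrin results was not tested.

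The other RGD-binding chains were low and not called. Itga5, the α5 chain of the classical fibronectin receptor, ran from 3.06 to 5.91 CPM in normal nerve and from 2.50 to 10.8 CPM in tumours (log2 fold change 0.26, edgeR adjusted p = 0.602). Itga8 ran from 1.07 to 8.90 CPM and from 1.73 to 18.2 CPM (log2 fold change 0.46, edgeR adjusted p = 0.632), and in both genes tumour replicate 2 was the highest tumour. That library also held the highest sum of pericyte and smooth muscle markers, 696 CPM. Over the groups these markers summed to 132 to 534 CPM in normal nerve and 248 to 696 CPM in tumours. By the edgeR test 2 of 9 tested (22.2%) were higher (Cspg4, 3.04-fold, without overlap, and Pdgfrb, 1.45-fold) and 0 lower, against 10.0% and 8.63% of all genes tested. The Pdgfrb call was lost without normal replicate 2, 4 or 5 or tumour replicate 2 or 4. Without tumour replicate 2 the log2 fold change was -0.13 for Itga5 and -0.43 for Itga8. Itgb6, an epithelial partner of αv, had a log2 fold change of 0.02 (edgeR adjusted p = 0.966) at medians of 2.89 CPM in normal nerve and 2.99 CPM in tumours.

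None of the 4 collagen-binding or of the 4 α4, α9 and leukocyte integrin chains was called in the main fit. Itga1 and Itga2, collagen receptors whose genes lie 21.0 kb apart on chromosome 13, had log2 fold changes of 0.59 (edgeR adjusted p = 0.0582) and 0.50 (edgeR adjusted p = 0.366). Itga1 was called without tumour replicate 3 or 5, with DESeq2 and with the length correction. It shares its strand and locus with Pelo, so its value is uncertain. Itga10 and Itga11, collagen receptors of cartilage and fibroblasts, had log2 fold changes of -0.91 (edgeR adjusted p = 0.192) and -0.45 (edgeR adjusted p = 0.235). Both were low. Itga10 ran from 0.966 to 7.44 CPM in normal nerve, highest in normal replicate 6, and from 0.997 to 2.58 CPM in tumours. Its log2 fold change was -1.16 to -0.29 with 1 library left out. Itga11 ran from 3.39 to 8.87 CPM in normal nerve and from 2.79 to 6.00 CPM in tumours. Itgb2, the β2 chain of leukocytes, measured 1.85 to 6.51 CPM in normal nerve and 3.97 to 9.08 CPM in tumours (log2 fold change 0.77, edgeR adjusted p = 0.0856) and was called without normal replicate 6 (edgeR adjusted p = 0.0165). Itga9 had a log2 fold change of 0.42 (edgeR adjusted p = 0.230) and was called without the same library (edgeR adjusted p = 0.0471), but Gm10157 overlaps it on the opposite strand with a higher mean count, 368 against 120. Itga4, an α chain of leukocyte and neural crest adhesion, ran from 12.5 to 20.6 CPM in normal nerve and from 13.6 to 19.9 CPM in tumours (log2 fold change -0.01, edgeR adjusted p = 0.956), and Itgb7 had a log2 fold change of 0.03 (edgeR adjusted p = 0.955).

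**Figure D4:**
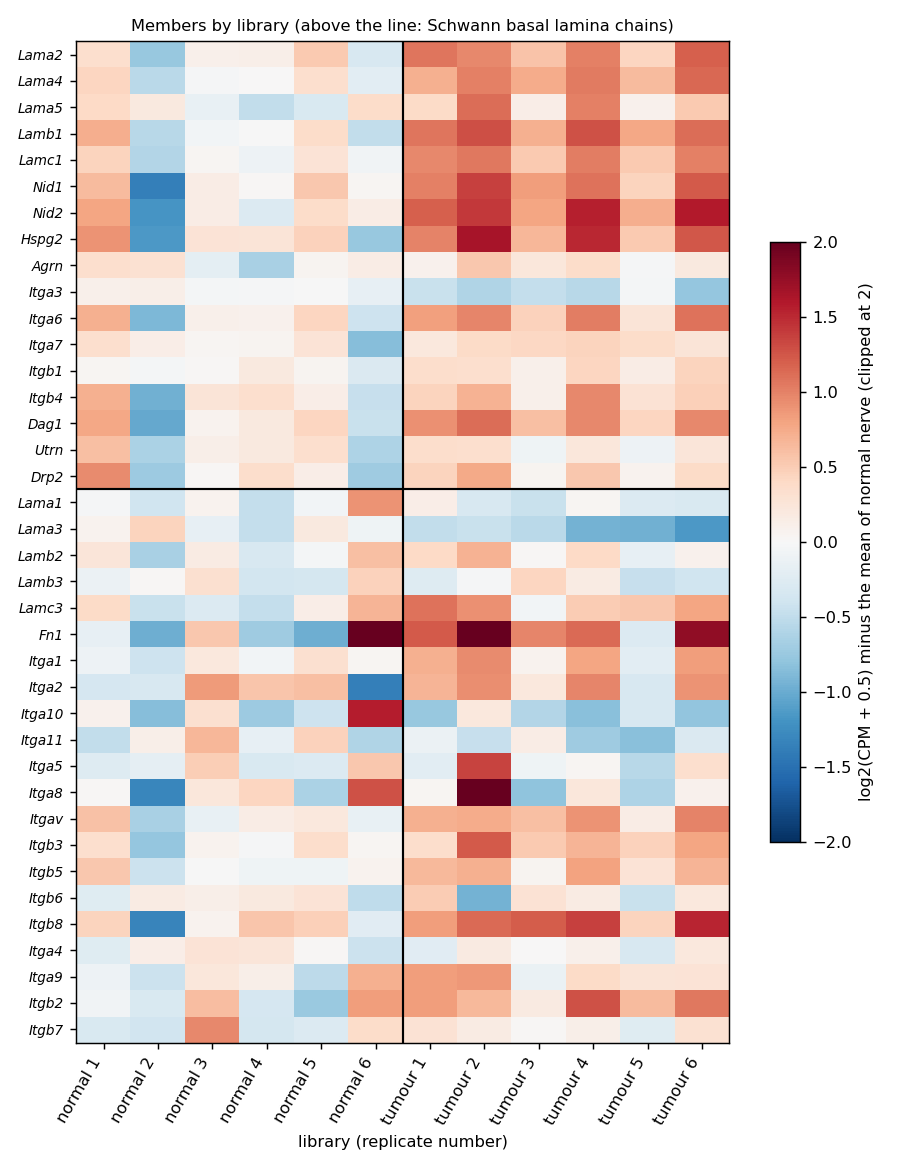
38 of the genes (rows) in each of the 12 libraries (columns), as log2(CPM + 0.5) minus the mean of the 6 normal nerve libraries, clipped at 2; red is higher and blue lower. The rows of Lama2, Lama4, Lamb1, Lamc1, Nid1, Nid2 and Hspg2 are red across the 6 tumours. Normal replicate 2 is the lowest library in 22 of the rows, and replicate 6 is red for Fn1, Itga10 and Itga8.

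The collagens that share the basal lamina with these ligands were examined as a list. Of 8 basement membrane collagen genes, 5 were higher (62.5%) and 0 lower, against 10.0% and 8.63% of all genes tested. All 8 log2 fold changes were above 0 with a median of 0.75. Col15a1 rose 3.42-fold and Col18a1 rose 2.99-fold (edgeR adjusted p = 0.00584 and 0.00205). The paired chains of the main type IV collagen, Col4a1 and Col4a2, rose 1.88-fold and 1.91-fold (edgeR adjusted p = 0.00877 and 0.00564). Leaving out single libraries gave 5 or 6 calls.

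Partners of dystroglycan moved both ways. Of 12 tested genes of the dystroglycan complex, 5 were higher and 2 lower (41.7% and 16.7%, against 10.0% and 8.63% of all genes tested). Sspn, which encodes sarcospan, rose 1.72-fold (edgeR adjusted p = 0.00549), Sgce, which encodes ε-sarcoglycan, rose 1.5-fold (edgeR adjusted p = 0.0214), and Sntb1, which encodes β1-syntrophin, rose 1.63-fold (edgeR adjusted p = 0.0237). Dtnb, which encodes β-dystrobrevin, fell to 0.71-fold (edgeR adjusted p = 0.00314). The calls of Sgce and Sntb1 were lost without tumour replicate 4, where 1 of the 12 genes was higher, and that of Sntb1 also without tumour replicate 6. Without tumour replicate 2 or 6 the count was 3, and the count lower was 1 without any one of 10 libraries. Of 14 enzymes that build the laminin-binding glycan of dystroglycan, Dpm3 and Tmem5 were higher (1.45-fold and 1.18-fold, edgeR adjusted p = 0.00883 and 0.031) and Pomgnt2 was lower (0.782-fold, edgeR adjusted p = 0.0081), with a list median of 0.10. The enzyme counts, 14.3% higher and 7.14% lower, were near the shares of all genes tested. The Tmem5 call was lost without any one of 8 libraries.

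Proteins that link integrins to actin were mostly not called. Of 19 tested effector genes, 3 were higher and 1 lower, with a median log2 fold change of 0.14. Those shares, 15.8% and 5.26%, were near the 10.0% and 8.63% of all genes tested. Lims2 (PINCH2, a partner of integrin-linked kinase) rose 2.02-fold (edgeR adjusted p = 0.00414), Rsu1, of the same adhesion complex, rose 1.34-fold (edgeR adjusted p = 0.0053), and Ptk2, which encodes focal adhesion kinase, rose 1.39-fold (edgeR adjusted p = 0.0165). Parvb, which encodes β-parvin, fell to 0.697-fold (edgeR adjusted p = 0.0149). The count higher was 5 without normal replicate 1, and the count lower was 3 without normal replicate 6. Of 5 tested integrin α chains with a letter in place of a number, mostly of leukocytes, 0 were called, and Itgal came nearest (log2 fold change 0.75, edgeR adjusted p = 0.106).

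Promoter sequences were read for 25 of the 39 genes from RefSeq (GRCm38.p6), each covering 250 bases before to 50 bases after a start site. For Lama2, Utrn, Lamb3 and Itga9 that start lay between 2816 and 105002 bases from the annotated 5′ end of the gene, so their windows are those of another start. The start of Itgb8 lay 526 bases inside the annotated gene. The median GC content of the 25 was 60.7%, against 52.7% over all 32851 promoters in the table. The GC box GGGCGG was present on either strand in 14 of the 25 and in 7 of the 8 read for genes that rose, and in 35.7% of all promoters. Those 8 include the Lama2 window, of another start, and that of Itgb8, the 1 without a GC box. A link of this GC-rich motif to the calls, apart from GC content, was not tested. The letters ACAAAG (a SOX motif) were in 2 of 25 against 18.7% of all, GGAATG (a TEAD motif) in 3 against 14.7%, TGANTCA (AP-1) in 1 against 7.81%, and TATAAA in 0 against 13.6%. No bases of the promoters printed here lay in overlapping matches. Shown are both genes of the laminin β pair, whose ratio did not overlap between the groups, with Dag1 and Itgb1, each the denominator of 2 pairs. Lama2, also the denominator of 2 pairs, and Utrn are left out because their starts in the table lie 2816 and 7630 bases inside the annotated genes. Capitals mark matches to any of the 5 motifs, on either strand, and each sequence is written 5′ to 3′ on the strand of its gene.
Lamb1, chr12:31265043-31265342, plus strand: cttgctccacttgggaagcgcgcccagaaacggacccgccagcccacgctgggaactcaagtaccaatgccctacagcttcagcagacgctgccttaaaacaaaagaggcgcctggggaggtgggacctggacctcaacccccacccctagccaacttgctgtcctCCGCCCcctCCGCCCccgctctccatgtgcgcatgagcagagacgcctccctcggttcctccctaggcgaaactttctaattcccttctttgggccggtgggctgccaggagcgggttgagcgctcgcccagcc
Lamb2, chr9:108479612-108479911, plus strand: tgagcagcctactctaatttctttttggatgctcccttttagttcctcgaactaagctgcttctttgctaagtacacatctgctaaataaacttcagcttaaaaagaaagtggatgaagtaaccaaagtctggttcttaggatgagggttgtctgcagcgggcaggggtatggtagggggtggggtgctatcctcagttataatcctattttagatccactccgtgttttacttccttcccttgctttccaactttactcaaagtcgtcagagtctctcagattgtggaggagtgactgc
Dag1, chr9:108263909-108264208, minus strand: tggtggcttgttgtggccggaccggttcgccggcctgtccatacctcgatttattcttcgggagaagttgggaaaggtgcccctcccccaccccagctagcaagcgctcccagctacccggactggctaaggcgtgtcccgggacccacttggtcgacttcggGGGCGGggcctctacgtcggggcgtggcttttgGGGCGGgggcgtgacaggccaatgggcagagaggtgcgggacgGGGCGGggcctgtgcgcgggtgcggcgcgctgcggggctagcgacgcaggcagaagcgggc
Itgb1, chr8:128685404-128685703, plus strand: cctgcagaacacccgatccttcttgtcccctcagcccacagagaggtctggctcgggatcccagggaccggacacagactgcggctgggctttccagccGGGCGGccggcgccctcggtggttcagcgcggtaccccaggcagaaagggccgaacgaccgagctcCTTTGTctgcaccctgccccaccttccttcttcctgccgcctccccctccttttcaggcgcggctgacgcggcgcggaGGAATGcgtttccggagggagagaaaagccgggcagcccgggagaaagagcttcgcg
The Lamb1 window held 2 GC boxes at 63.7% GC, and the Lamb2 window held 0 matches of any of the 5 motifs at 44.0% GC. The Dag1 window held 3 GC boxes at 69.7% GC. The Itgb1 window, at 67.3% GC, held 1 GC box, 1 SOX match and 1 TEAD match. These matches describe letters in a window and not binding by a factor.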

How the data were processed

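Poly(A) RNA of 12 trigeminal nerve samples was sequenced. Per the labels' protocols, RNA was taken with a column kit, and both a stranded mRNA kit and a TruSeq kit are named. The tools named, per the submitters' processing notes, are STAR 2.4.2a, Salmon 0.60, FastQC and DESeq2, and the build is mm10, with no role or order. Which annotation was counted, and whether strand was used, is not given in the sources used here. Estimated counts for 47480 gene symbols were deposited by the authors as 1 table without normalization, and columns were matched to samples by title. Between 84.1% and 86.5% of a library's values were whole within 0.001. Symbols were matched to GENCODE vM21 (GRCm38, the assembly of mm10), 45187 directly, 619 through a synonym and 1674 not at all. The longest annotated transcript gave gene length.

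Estimated counts were rounded, filtered with filterByExpr, which left 17236 genes, and tested in edgeR 4.0.16 by quasi-likelihood (R 4.3.3, TMM factors, robust fit, no covariate), with Benjamini-Hochberg adjustment over all genes tested and a threshold of 0.05. Adjusted p-values of genes are from this fit unless another tool is named. The SE of a gene is its absolute log2 fold change divided by the square root of the F statistic of this test. Within-library ratios used log2 CPM with a prior count of 2. Depth and the spread between samples limit precision. On data simulated for this comparison with 17071 genes, of which 200 were changed, the test recovered 50.0% of 1.5-fold, 81.8% of 2-fold and 90.9% of 4-fold changes, and 2.63% of its calls were false. The changed genes were drawn from those with a mean above 2 CPM, and no library was simulated to stand apart. These rates therefore do not cover scarcer genes or the libraries that stood apart here.

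Alternatives were upper-quartile and RLE factors, no filter, CPM above 1 in 6 samples, limma-voom (limma 3.58.1, sample weights), DESeq2 1.42.0, a muscle score covariate, a transcript length correction (lowess, span 0.3), a prior count of 0.5 for ratios and leaving out each library. A fit without 3 libraries that stood apart was added after seeing the data. The genes, their classes and the lists beside them were chosen with earlier results of these data known. Values are given for every called gene and every Schwann basal lamina chain. For the others they are ranges or medians, or only the log2 fold change. For each other list up to 4 called genes are named in order of p-value. Lamb4 is not used here. No samples were left out of the main fit, and no sequence was printed from chromosome 18. Some genes of these lists enter the counts but are not reported here by name.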

Additional observations from a re-analysis of the deposited data

Results flagged for a closer look

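In 6 of 78 groups of 6 libraries (39 genes in 2 groups each), the highest or lowest library lay farther from its neighbour, relative to the range of the group, than Dixon's 95% critical value of 0.625 allows. Chance alone flags about 1 in 20 such groups. Normal nerve replicate 6 was the outlying library in 4 of them. Its level was low for Itga7, at 51.85 CPM against at least 96.5 CPM in the other normal libraries. It was high for Lama1 (10.75 CPM), for Fn1 (203.4 CPM) and for Itga10 (7.436 CPM). This is the library with 2204 CPM of central glia markers, and the part of those cells in the 4 values was not tested. Plexiform neurofibroma replicate 2 was high for Itga5, at 10.77 CPM, and for Itga8, at 18.16 CPM. It also held the highest summed level of pericyte and smooth muscle markers, 696 CPM, whose part was not tested.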

How the results depend on the processing

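Over all genes tested, 1730 were higher and 1488 lower, 2286 and 1954 with DESeq2, and 2864 and 2701 with limma-voom and sample weights. The counts were 1364 and 902 with no filter on low counts, and 2185 and 2025 without the 3 libraries that stood apart. Leaving out 1 library gave 1092 to 2544 higher and 801 to 2487 lower. For the 39 genes the count higher was 12 in the main fit, 6 with no filter, 10 with the muscle score covariate and 15 with the length correction. It was 18 with DESeq2, 18 with limma-voom and 5 to 15 with 1 library left out. For the Schwann basal lamina it was 8 in the main fit, 5 with no filter, 7 with the muscle score covariate and 10 with the length correction. There it was 11 with DESeq2, 11 with limma-voom and 5 to 10 with 1 library left out. For the other chains it was 1 with no filter, 7 with DESeq2, 7 with limma-voom, 2 without the 3 libraries that stood apart, and 0 to 8 with 1 library left out. Directions turned for Utrn (log2 fold change -0.0046 to 0.23 with 1 library left out, -0.19 without the 3), Drp2 (-0.020 without the 3), Lamb3 (-0.40 to 0.021, and 0.15), Itga5 (-0.13 to 0.40), Itga8 (-0.43 to 0.85), Itgb6 (-0.061 with limma-voom, -0.11 to 0.18, and -0.19), Itga4 (0.14 with the length correction, -0.090 to 0.046) and Itgb7 (-0.065 to 0.37, and -0.059), none of them called. The ratio of Lama4 to Lama2 ran from -0.034 to 0.080 with 1 library left out, and without the 3 libraries Lama5 to Lama2 was 0.16 and Itgb4 to Itgb1 was -0.065. Itgb8 to Itgb1 was 0.529 to 0.887 with 1 library left out and 0.54 without the 3. The cause was not tested, except that fewer libraries or more genes tested enter by construction. No paired analysis was possible because the labels give no replicate numbers, and those used here follow the order of the records and pair nothing.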
